A study of Homo sapiens with 6 samples.

Results

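The prostaglandin genes were taken by name: 10 genes of synthesis, reception and breakdown, *PTGS1*, *PTGS2*, *PTGES*, *PTGES2*, *PTGES3*, *PTGIS*, *PTGER2*, *PTGER4*, *PTGFR* and *HPGD*, out of 58676 gene identifiers counted by RNA-Seq. The rule itself uses gene names alone, but the genes were picked with earlier results of these data known, so their counts below are a description. All libraries came from MRC5 cells, an established line of human lung fibroblasts, exposed for 24 h to conditioned media (CM) from ATIIER:KRASV12 cells. These are alveolar epithelial type II cells carrying an inducible KRASV12 transgene, in which 4-hydroxytamoxifen (4-OHT) switches RAS on. For the control libraries (control ATII CM, n = 3) the CM came from control epithelial cells, and for the 4-OHT libraries (4-OHT ATII CM, n = 3) from epithelial cells given 4-OHT. The comparison asks how fibroblasts respond to factors released by RAS-activated epithelium with no TGF-β added. Effects of RAS-driven factors and of any 4-OHT left in the medium cannot be told apart in this design. A single fibroblast line was used, and the labels do not say that replicates were separate cultures, so p values measure the spread between these libraries, which may be technical.

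Prostaglandins are short-lived lipid signals made from arachidonic acid. Cyclooxygenases (*PTGS1*, *PTGS2*) turn it into an unstable intermediate, from which terminal synthases make PGE2 (*PTGES*, *PTGES2*, *PTGES3*) or prostacyclin (*PTGIS*), and the products act on G protein-coupled receptors such as EP2 (*PTGER2*), EP4 (*PTGER4*) and FP (*PTGFR*) before *HPGD*, a dehydrogenase, inactivates them. In lung fibroblasts PGE2 acting through EP2 and cAMP is known as a brake on proliferation, migration and collagen synthesis, while PGF2α acting through FP is known as profibrotic.

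Each library held between 17691849 and 26389449 counts (median 22273931). Levels are CPM, counts relative to the library size after TMM scaling. The second principal component (23.3% of the variance) set control replicate 2 apart, and the first (43.4%) separated the groups. Without that replicate the same 3 prostaglandin genes were called as with it. All 9 fibroblast markers examined were present, with sums of 41020 to 44535 CPM in the controls and 42888 to 44629 CPM with 4-OHT. Single markers did differ: *DCN* (log2 fold change 0.33), *LUM* (0.29), *PDGFRA* (0.22) and *COL3A1* (0.18) were called higher and *VIM* (-0.10) lower, which is 5 of the 9, and their part in the results was not tested. Of 9 markers of epithelium, the source of the CM, *EPCAM*, *CDH1*, *SFTPC*, *SFTPB*, *NKX2-1* and *CLDN4* stayed below 1 CPM in every library, and the sum of the list, almost all from *KRT8*, *KRT18* and *KRT19*, ran from 91.3 to 97.2 CPM for the controls and from 88.9 to 95.1 CPM with 4-OHT. The 5 leukocyte markers summed to 0.609 to 1.01 CPM in the controls and, without overlap, to 1.14 to 1.94 CPM with 4-OHT, nearly all of it *CD14*, while *PTPRC*, *CD68*, *LYZ* and *HPGDS* stayed below 1 CPM. *CD14* itself, with 12 to 49 counts per library, was not called by edgeR (adjusted p = 0.0597), and its part in the results was not tested. The 4 endothelial markers summed to at most 0.560 CPM, with *PECAM1* and *CDH5* at 0.

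Of the 10 genes, 9 reached the 10 summed counts needed for a test, and *HPGD* was not measured, with 0 counts in all 6 libraries. At an adjusted p below 0.05 from edgeR, 3 of the 9 were upregulated in 4-OHT ATII CM (*PTGS1*, *PTGES* and *PTGER2*) and 0 were downregulated. The same 3 were called higher by limma-voom, and 2 of them, without *PTGES*, by DESeq2, and both tools called 0 lower. By edgeR 1 gene, *PTGES2*, was lower at an unadjusted p below 0.05. Among all 19072 genes tested, 5.72% were called, 2.95% as higher and 2.76% as lower. At mean levels of 5 CPM and above the share called was 9.79%, and 7 of the 9 were at such levels, among them the 3 called. The median log2 fold change of the 9 genes was 0.157, with 8 above 0, beside -0.002 over all genes. The values of the groups did not overlap for 6 of the 9 genes, 5 of them higher and 1 lower, which was so for 22.1% of all genes tested. Without adjustment, 5 of the 9 had a p below 0.05, as had 17.3% of all genes tested.

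Per kilobase of exon, the scale on which genes can be compared with each other, *PTGS1* was the most abundant of the 10 genes, with a mean over the 6 libraries of 134 CPM per kb, above 98.6% of the genes tested. *PTGER2* followed at 69.3 CPM per kb and *PTGES3* at 59.2 CPM per kb. *PTGES2* was at 13.7 CPM per kb. *PTGES* (5.33 CPM per kb) and *PTGER4* (4.89 CPM per kb) did not differ beyond the spread of the control libraries, whereas in 4-OHT ATII CM all 3 libraries had more *PTGES* than any had *PTGER4*. *PTGFR* was at 2.82 CPM per kb and *PTGS2* at 0.503 CPM per kb, above only 32.2% of the genes tested. *PTGIS* closed the measured genes at 0.111 CPM per kb. Every other pair of neighbours in this order was separated in both groups.

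**Figure D1:**
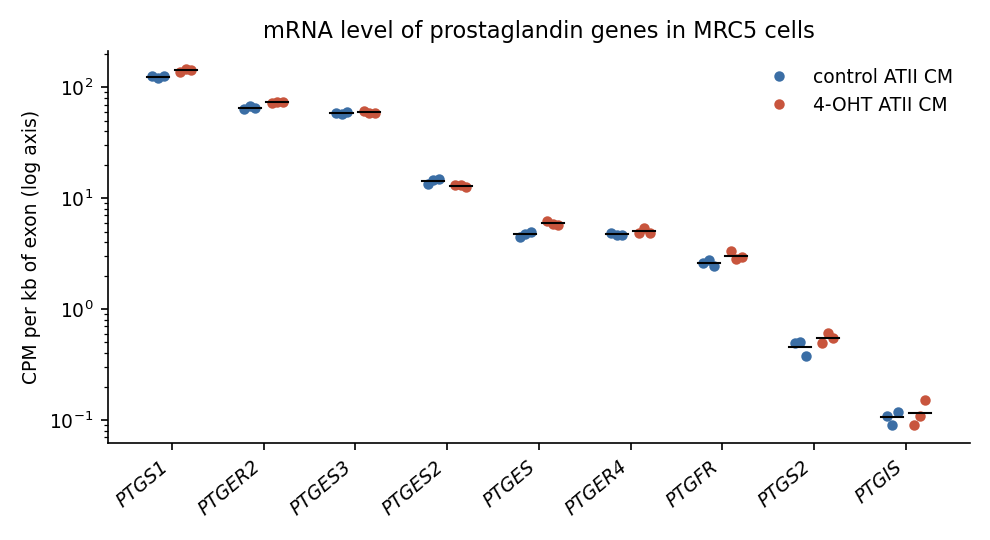
Level of the 9 measured genes in CPM per kb of exon on a log axis, ordered by their mean. Points are libraries of control ATII CM (blue) and 4-OHT ATII CM (red), 3 each, and lines are group means. Means run from 134 CPM per kb for *PTGS1* to 0.111 CPM per kb for *PTGIS*, and within each gene the groups lie close together on this axis.

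The sequences just upstream of the start of the 3 called genes and of *PTGS2* are shown, the called genes because the results turn on them and *PTGS2* as the other cyclooxygenase. They are the 250 bases before a RefSeq start (build GRCh38.p14), read 5′ to 3′ on the gene's strand. Capitals mark matches on either strand to a cAMP response element half-site (TGACG), the NF-kB consensus or TATAAA. Only exact matches are marked. Sites that differ from these forms by a single base stay in lower case, so an unmarked stretch does not mean that a site is absent.

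PTGS1, chr9:122370283-122370532, plus strand: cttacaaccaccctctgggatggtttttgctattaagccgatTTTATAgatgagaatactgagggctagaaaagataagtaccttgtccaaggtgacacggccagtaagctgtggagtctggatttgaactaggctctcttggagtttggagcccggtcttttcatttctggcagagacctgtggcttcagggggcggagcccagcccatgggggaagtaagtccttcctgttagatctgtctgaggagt

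PTGS2, chr1:186680424-186680673, minus strand: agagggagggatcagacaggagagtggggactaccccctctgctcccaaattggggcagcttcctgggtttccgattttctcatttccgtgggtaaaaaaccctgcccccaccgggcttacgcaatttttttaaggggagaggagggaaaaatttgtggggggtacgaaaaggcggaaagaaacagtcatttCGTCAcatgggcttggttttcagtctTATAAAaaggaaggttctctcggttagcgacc

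PTGES, chr9:129753043-129753292, minus strand: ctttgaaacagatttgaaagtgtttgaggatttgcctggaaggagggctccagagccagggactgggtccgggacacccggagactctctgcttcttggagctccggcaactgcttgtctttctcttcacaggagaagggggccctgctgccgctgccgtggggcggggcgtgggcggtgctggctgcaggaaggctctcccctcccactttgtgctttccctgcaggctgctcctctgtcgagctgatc

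PTGER2, chr14:52314062-52314311, plus strand: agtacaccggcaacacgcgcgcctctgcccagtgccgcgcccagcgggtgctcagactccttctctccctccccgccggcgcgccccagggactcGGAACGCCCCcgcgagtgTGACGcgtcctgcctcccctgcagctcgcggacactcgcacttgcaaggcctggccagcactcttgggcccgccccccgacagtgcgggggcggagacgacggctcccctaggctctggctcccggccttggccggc

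For *PTGS1* the table holds 2 starts, and the window lies before the one beside the first base of the deposited gene model. That start is 491 bases from the canonical Ensembl start, whereas the other windows shown end at theirs. *PTGS2* has TATAAA from -32 to -27 and a half-site from -58 to -54, counted back from -1, the base before the start. *PTGER2* has a half-site from -137 to -133 and an NF-kB match from -155 to -146. *PTGS1* has a match to TATAAA from -208 to -203. That match, the *PTGS2* half-site and the *PTGER2* NF-kB match are on the strand opposite to the one shown. *PTGES* has none of the motifs. Of 34788 distinct windows of this kind, 21.2% hold TGACG, 9.95% the NF-kB consensus and 10.8% TATAAA. The full element TGACGTCA, which contains the half-site, is in 1.64%, the AP-1 motif TGANTCA in 6.59% and the E-box CACGTG in 6.31%. None of the 3 is in the windows of the 9 genes found in the set of RefSeq promoters used here, in which *PTGIS* was not found. These matches describe letters and not binding.

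*PTGS1* (ENSG00000095303, chromosome 9 of GRCh38, 122370530 to 122395703, plus strand) encodes COX-1, the cyclooxygenase usually regarded as constitutive. It was at 730.1, 697 and 738 CPM in control replicates 1, 2 and 3, and at 802, 856 and 830.2 CPM in the 4-OHT ones. The groups did not overlap. The mean rose from 722 ± 21.7 CPM (SD, n = 3) to 829.5 ± 26.8 CPM (SD, n = 3), or 0.20 on the log2 scale (SE 0.0327, 95% interval 0.13 to 0.27, adjusted p = 0.00146), which is 14.9% more mRNA. In bulk RNA, a change in the number of cells with a transcript and a change in the amount per cell cannot be told apart. *PTGS1* stayed upregulated in all 15 alternative analyses (other tools, scalings and filters, a replicate block, a length correction, or 1 library left out). Adjusted p values ran from 3.22e-08, in the edgeR fit without a low-count filter, to 0.0161, in the edgeR fit without 4-OHT replicate 2.

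*PTGS2* (ENSG00000073756, chromosome 1, 186671791 to 186680427, minus strand) encodes COX-2, the cyclooxygenase induced by cytokines and growth factors. Its counts were 55, 47 and 45 in the controls and 57, 80 and 76 with 4-OHT, which is 2.58, 2.63 and 1.99 CPM against 2.60, 3.21 and 2.89 CPM. The groups overlapped, since 4-OHT replicate 1 lay between control replicates 1 and 2. The log2 fold change was 0.28 with an interval of -0.09 to 0.66 (SE 0.175, adjusted p = 0.455). That interval holds both 0 and the value of *PTGS1*. In none of the 15 alternatives was *PTGS2* called (adjusted p from 0.351 to 0.771), and the log2 fold change ran from 0.15, without control replicate 3, to 0.36.

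Per kb of exon, *PTGS1* mRNA exceeded that of *PTGS2* 258-, 241- and 338-fold in the control libraries and 280.4-, 243- and 261-fold in the 4-OHT libraries. *PTGS1* thus held 99.6% of cyclooxygenase mRNA in each group. The log2 ratio of *PTGS2* to *PTGS1* averaged -8.11 ± 0.259 for the controls and -8.03 ± 0.104 with 4-OHT (SD, n = 3 each), which differ by 0.080 (exact permutation test, two-sided, p = 0.9). The smallest p that 3 libraries against 3 allow is 0.1. Without control ATII CM replicate 3 the difference was -0.07.

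*PTGES* (ENSG00000148344, chromosome 9, 129738331 to 129753047, minus strand) encodes the inducible microsomal PGE2 synthase, which commonly works with COX-2. It was at 8.39, 9.02 and 9.44 CPM in the controls and at 11.83, 10.99 and 10.96 CPM with 4-OHT. All 3 libraries of 4-OHT ATII CM lay above all 3 controls. The mean rose from 8.95 ± 0.531 to 11.3 ± 0.495 CPM (SD, n = 3 each), or 0.33 on the log2 scale (SE 0.0872, interval 0.14 to 0.51, adjusted p = 0.0365), the largest fold change of the 9 genes. The call sits near the threshold. Among the alternatives without a replicate block, it was not made by DESeq2 (adjusted p = 0.0891), nor without control replicate 1 (0.148) or 3 (0.0645), nor without 4-OHT replicate 1 (0.119), 2 (0.0865) or 3 (0.0902), while the log2 fold change stayed between 0.28 and 0.37.

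*PTGES2* (ENSG00000148334, chromosome 9, 128120693 to 128128462, minus strand), a second membrane-associated PGE2 synthase, was the 1 gene with a negative fold change. It was at 41.1, 44.6 and 44.9 CPM in the controls and at 40.1, 39.7 and 38.5 CPM with 4-OHT. The libraries of 4-OHT ATII CM were all below the controls, by a narrow gap. The log2 fold change was -0.14 (SE 0.0480, interval -0.25 to -0.04) and did not pass after adjustment (adjusted p = 0.105). Without control replicate 1, the lowest control, it was called as lower (adjusted p = 0.0463).

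*PTGES3* (ENSG00000110958, chromosome 12, 56663341 to 56688408, minus strand) encodes cytosolic PGE2 synthase, better known as p23, a cochaperone of HSP90. It was at 199, 196 and 205 CPM in the controls and at 207, 199.5 and 201 CPM with 4-OHT. These values overlap, and the log2 fold change of 0.02 has a narrow interval of -0.06 to 0.09 (adjusted p = 0.864). Of the mRNA of the 3 PGE2 synthases per kb, *PTGES3* held 75.6 ± 0.896% in the controls and 75.9 ± 0.296% with 4-OHT. The share of *PTGES* went from 6.06 ± 0.237% to 7.56 ± 0.176% and that of *PTGES2* from 18.4 ± 0.686% to 16.5 ± 0.296% (SD, n = 3 each), with no overlap between the groups for either.

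*PTGIS* (ENSG00000124212, chromosome 20, 49503874 to 49568146, minus strand), the prostacyclin synthase, had 13, 9 and 15 counts in the controls and 11, 15 and 22 with 4-OHT. With so few counts the log2 fold change of 0.13 had an interval of -0.56 to 0.82 (adjusted p = 0.898), and a difference was not detectable at this depth. Its sign turned to -0.11 without 4-OHT replicate 3.

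**Figure D2:**
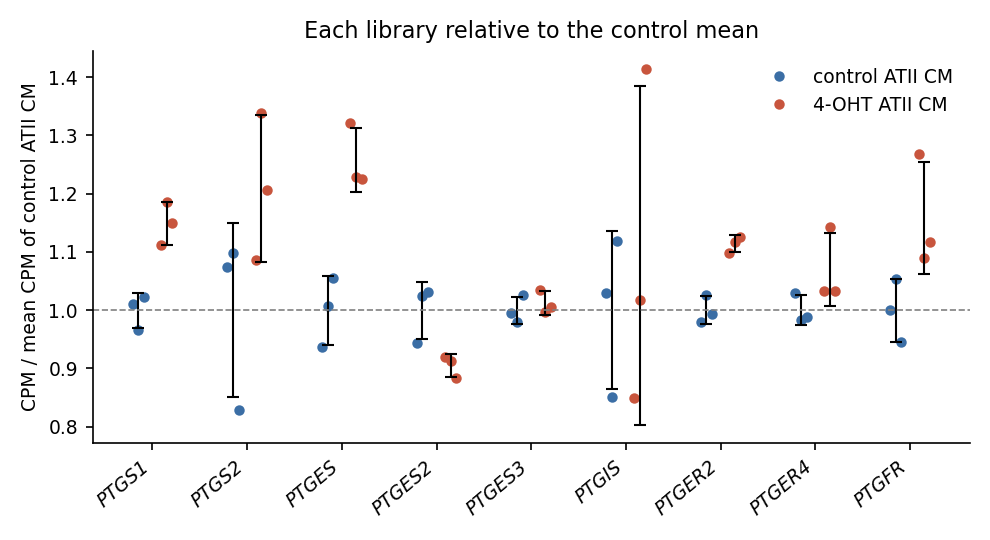
CPM of each library divided by the mean of control ATII CM, for the 9 measured genes, ordered by role. Points are libraries, blue for control ATII CM and red for 4-OHT ATII CM, black bars span the mean ± SD of 3 libraries, and the dashed line is the control mean. The red points of *PTGS1*, *PTGES*, *PTGER2*, *PTGER4* and *PTGFR* lie above all blue ones and those of *PTGES2* below, while *PTGS2*, *PTGES3* and *PTGIS* overlap.

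*PTGER2* (ENSG00000125384, chromosome 14, 52314305 to 52328606, plus strand) encodes EP2, a PGE2 receptor that couples to Gs and raises cAMP. It was at 159, 166.5 and 161 CPM in the controls and at 178, 181 and 183 CPM with 4-OHT, so the groups did not overlap. The mean went from 162 ± 3.90 CPM up to 181 ± 2.31 CPM (SD, n = 3 each), or 0.16 on the log2 scale (SE 0.0346, interval 0.08 to 0.23, adjusted p = 0.0123) or 11.5% more mRNA. DESeq2 and limma-voom called it too (adjusted p = 0.00360 and 0.00626). It was not called without control replicate 1 (adjusted p = 0.0613) or 3 (0.0754), nor without 4-OHT replicate 2 (0.0683) or 3 (0.0882).

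*PTGER4* (ENSG00000171522, chromosome 5, 40679498 to 40693735, plus strand) encodes EP4, the other Gs-coupled PGE2 receptor. It was at 19.3, 18.4 and 18.5 CPM in the controls and at 19.3, 21.4 and 19.3 CPM with 4-OHT. The lowest 4-OHT library (19.32 CPM) was barely above the highest control (19.26 CPM), and the log2 fold change of 0.10 was not called (interval -0.05 to 0.24, adjusted p = 0.521). Without 4-OHT replicate 2 it was 0.04.

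*PTGFR* (ENSG00000122420, chromosome 1, 78303884 to 78539749, plus strand) encodes FP, the receptor of PGF2α, which couples to Gq and calcium. It was at 12.3, 13.0 and 11.7 CPM in the controls and at 15.6, 13.4 and 13.8 CPM with 4-OHT. Every 4-OHT library was above every control, and the log2 fold change was 0.21 with an interval of 0.03 to 0.39. It was not called after adjustment (adjusted p = 0.182), nor in any alternative (adjusted p from 0.116 to 0.458).

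Among the 9 prostanoid receptor genes, *PTGER2* held 83.9 ± 0.0645% of the mRNA per kb in the controls and 84.4 ± 0.585% with 4-OHT (SD, n = 3 each), and the groups overlapped. *PTGER4* held 6.05 ± 0.281% and 5.83 ± 0.299%, and *PTGFR* 3.34 ± 0.139% and 3.50 ± 0.331%. The remaining 6 receptors shared the rest. The receptor mRNA of these fibroblasts was thus mostly that of EP2 in either CM.

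*HPGD* (ENSG00000164120, chromosome 4, 174490177 to 174523154, minus strand) encodes 15-hydroxyprostaglandin dehydrogenase, the enzyme that begins the breakdown of PGE2. With 0 counts per library, 3 counts is the limit on what could have been missed, which is 0.170 CPM in the smallest library and 0.114 CPM in the largest, for counting error only. No fold change can be given.

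**Figure D3:**
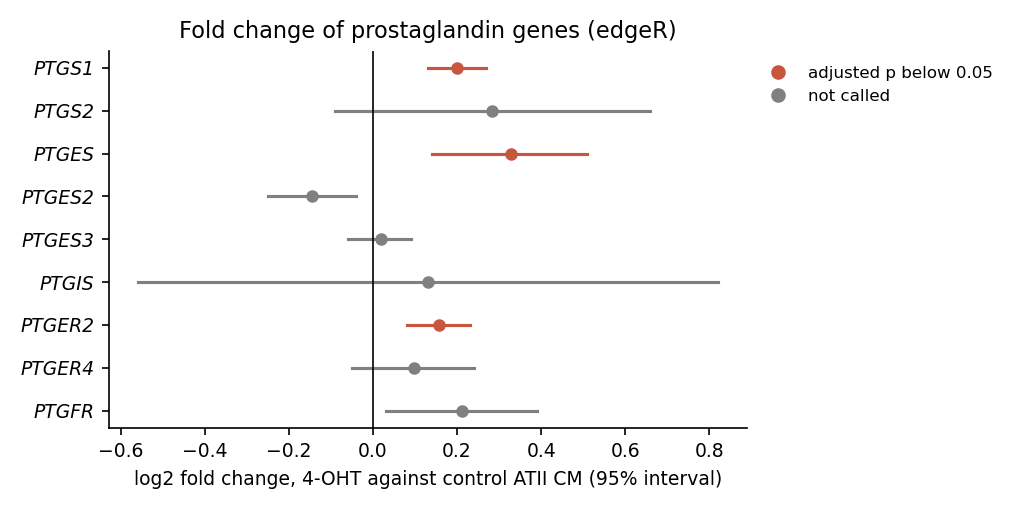
Log2 fold change of 4-OHT ATII CM against control ATII CM for the 9 measured genes, from edgeR. Points are estimates and lines 95% intervals, red for an adjusted p below 0.05 and grey for genes not called. The 3 red genes range from 0.16 to 0.33, and the widest interval, -0.56 to 0.82, belongs to *PTGIS*.

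In the deposited gene models, exons of the 10 genes shared no base with those of another listed gene, and none of their transcripts had a close copy on the 261 alternate contigs of the assembly or in another gene's transcript. *PTGES3* has pseudogenes, of which *PTGES3P1* had 77 to 93 counts per library against 3500 to 5286 for *PTGES3*.

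The genes around the pathway were followed in 8 hand-written lists of 89 genes, 78 of which were tested. Of these, 10 were upregulated and 1 was downregulated (14.1% called, beside 5.72% of all genes), and the median log2 fold change was 0.062. Among all genes at mean levels of 5 CPM and above, which some of the 78 did not reach, 9.79% were called. These lists were set with earlier results of these data known, so that their counts are a description.

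Arachidonic acid is freed from membranes by phospholipases A2. In that list of 13 genes, 10 were tested, 1 rose and 1 fell, with a median of -0.019. *PLA2G4A*, the cytosolic phospholipase that supplies most arachidonic acid for prostaglandins, was at 3.05, 3.86 and 4.06 CPM in the controls and at 6.21, 5.13 and 4.91 CPM with 4-OHT. All 4-OHT libraries were higher, by 0.56 on the log2 scale (SE 0.147, adjusted p = 0.0333). It was not called without control replicate 1 (adjusted p = 0.151) or 3 (0.0508), nor without 4-OHT replicate 1 (0.136) or 2 (0.0789). *ANXA1*, which encodes annexin A1, an inhibitor of phospholipase A2 activity and the list's most abundant gene per kb, fell from 340 ± 14.5 CPM to 304 ± 8.03 CPM (SD, n = 3 each). Its log2 fold change was -0.16 (SE 0.0367, adjusted p = 0.0156), and it was not called without 4-OHT replicate 2 (0.101) or 3 (0.0678). The secreted phospholipases *PLA2G2A*, *PLA2G5* and *PLA2G10* had at most 2 counts over all libraries, whereas *PLA2G12A*, another secreted one, had 2178 and was not called (log2 fold change 0.09).

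Of the 7 other prostanoid synthases tested, *TBXAS1*, the thromboxane synthase, was upregulated. It was at 47.5, 48.5 and 45.4 CPM in the controls and at 58.3, 60.7 and 57.5 CPM with 4-OHT. The groups did not overlap and differed by 0.32 on the log2 scale (SE 0.0427, adjusted p = 0.000279), and it was called in all 15 alternatives. *AKR1B1*, an aldose reductase that can make PGF2α and the most abundant of the list per kb, had a log2 fold change of -0.03 (interval -0.11 to 0.05). *PTGDS*, a prostaglandin D synthase, was at 1.65 and 1.76 CPM on average, and *HPGDS*, the hematopoietic one, had 0 counts. Their list had a median of 0.071.

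The list of other receptors had 5 genes tested, 4 receptors and *PTGFRN*, a negative regulator of FP that is not itself a prostanoid receptor. Of these, 0 were called by edgeR, DESeq2 or limma-voom, and 0 had an unadjusted p below 0.05 by any of these. The median of the 5 was 0.027. *PTGER1* (EP1), which had the highest mean per kb but was below *TBXA2R*, the thromboxane receptor, in control replicate 2 and 4-OHT replicate 2, was at 2.60 ± 0.218 CPM in the controls and 2.64 ± 0.192 CPM with 4-OHT (SD, n = 3 each). *PTGIR*, the prostacyclin receptor, was at 5.20 ± 0.0483 and 5.41 ± 0.119 CPM. *PTGER3* (EP3) and *PTGDR* had 3 and 8 counts over all libraries.

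For export, uptake and breakdown, 6 genes were tested and 1 rose, with a median of 0.120. *PTGR1*, a reductase acting on prostaglandin metabolites and leukotriene B4, went from 167, 172 and 173.5 CPM to 197, 192 and 191 CPM, or 0.18 on the log2 scale (SE 0.0342, adjusted p = 0.00476), and was called in all 15 alternatives. *ABCC4*, which exports PGE2, was at 170.0 ± 13.5 CPM and 188.5 ± 8.09 CPM and was not called (log2 fold change 0.15, adjusted p = 0.113). It passed in 5 of 15 alternatives (adjusted p from 0.00201 to 0.370), 1 of them without control replicate 1 (adjusted p = 0.0457) and the others with all 6 libraries. *SLCO2A1*, the prostaglandin uptake transporter, had 56 counts in all.

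On the lipoxygenase side, 6 of 10 genes were tested, with a median of 0.034, and 0 were called or had an unadjusted p below 0.05 by edgeR, DESeq2 or limma-voom. *ALOX5*, *ALOX15* and *CYSLTR1* had 0 counts. *LTA4H*, a leukotriene A4 hydrolase, was the most abundant per kb, at 49.5 ± 3.27 and 52.2 ± 0.888 CPM (SD, n = 3 each).

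EP2 and EP4 act through Gs, adenylyl cyclase and cAMP. Of 25 genes of that machinery, 3 rose, with a median of 0.056. None was called lower by edgeR, DESeq2 or limma-voom, and 1 was lower at an unadjusted p below 0.05 by each. *PRKAR2B*, a regulatory subunit of protein kinase A, was at 46.4, 50.1 and 45.8 CPM in the controls and at 63.2, 60.6 and 57.9 CPM with 4-OHT (log2 fold change 0.36, SE 0.0470, adjusted p = 0.000279), and it was called in all 15 alternatives. *PDE4B*, a phosphodiesterase that degrades cAMP, went from 10.8, 10.8 and 11.6 CPM to 13.3, 14.0 and 14.6 CPM, a log2 fold change of 0.34 (adjusted p = 0.0172). It was not called without control replicate 1 (adjusted p = 0.0654) or 4-OHT replicates 2 (0.0646) or 3 (0.0964).

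*PDE1A*, a calcium-dependent phosphodiesterase, had the largest fold change of the called genes in these lists, from 2.55 ± 0.229 CPM to 4.07 ± 0.433 CPM (SD, n = 3 each; log2 fold change 0.68, adjusted p = 0.0166). It was not called without control replicate 1 (adjusted p = 0.0749) or 3 (0.0554), nor without 4-OHT replicate 1 (0.0618) or 2 (0.0794). *GNAS*, which encodes Gs itself, had a log2 fold change of -0.02 (interval -0.09 to 0.04). *PDE5A*, a cGMP phosphodiesterase and the most abundant of this list per kb, had one of 0.02 (interval -0.07 to 0.12), and 5.54% of its exon bases are shared with the pseudogene *SEPTIN7P14* on the opposite strand.

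Of 9 tested genes that cAMP is known to induce, 2 rose. *AREG*, which encodes the EGF receptor ligand amphiregulin, was at 8.62, 9.13 and 7.85 CPM in the controls and at 11.5, 12.4 and 12.5 CPM with 4-OHT. The groups were well apart (log2 fold change 0.51, SE 0.0889, adjusted p = 0.00243), and it was called in all 15 alternatives. *RGS2*, a regulator of Gq signaling, went from 27.0 ± 0.149 to 31.7 ± 2.36 CPM (log2 fold change 0.23, adjusted p = 0.0289). It was not called without control replicate 1 (adjusted p = 0.0828) or 3 (0.0928), nor without 4-OHT replicate 2 (0.160) or 3 (0.0694). *NR4A1*, *NR4A2*, *NR4A3*, *CREM*, *PER1*, *FOS* and *DUSP1*, the most abundant per kb, were not called, with log2 fold changes from -0.17 to 0.28, and the list had a median of 0.069.

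Of 10 regulators of *PTGS2*, 2 rose, with a median of 0.070. *IL1R1*, the interleukin-1 receptor, was at 208, 194.5 and 203 CPM in the controls and at 274, 273 and 271 CPM with 4-OHT (log2 fold change 0.43, SE 0.0345, adjusted p = 3.15e-06), and it was called in all 15 alternatives. *IL1B*, which encodes a ligand of that receptor, had 20 counts over all libraries. *CEBPB*, a transcription factor of inflammatory genes and the most abundant of the list per kb, went from 147 ± 2.25 to 161 ± 3.97 CPM (log2 fold change 0.13, adjusted p = 0.0377), and was not called when any library but control replicate 2 was left out (adjusted p from 0.0637 to 0.182). Exons of *CEBPB* share 11.8% of their bases with *CEBPB-AS1* on the opposite strand, a gene with 4 to 11 counts per library, and whether counting used the strand is not given in the sources used here. *ELAVL1*, which stabilizes *PTGS2* mRNA, had a log2 fold change of -0.03, and *ZFP36*, which promotes its decay, had one of 0.21 (adjusted p = 0.0532). *ZFP36* passed in 7 of 15 alternatives (adjusted p from 0.00156 to 0.238), 1 of them without control replicate 3 (adjusted p = 0.0190) and the others with all 6 libraries.

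**Figure D4:**
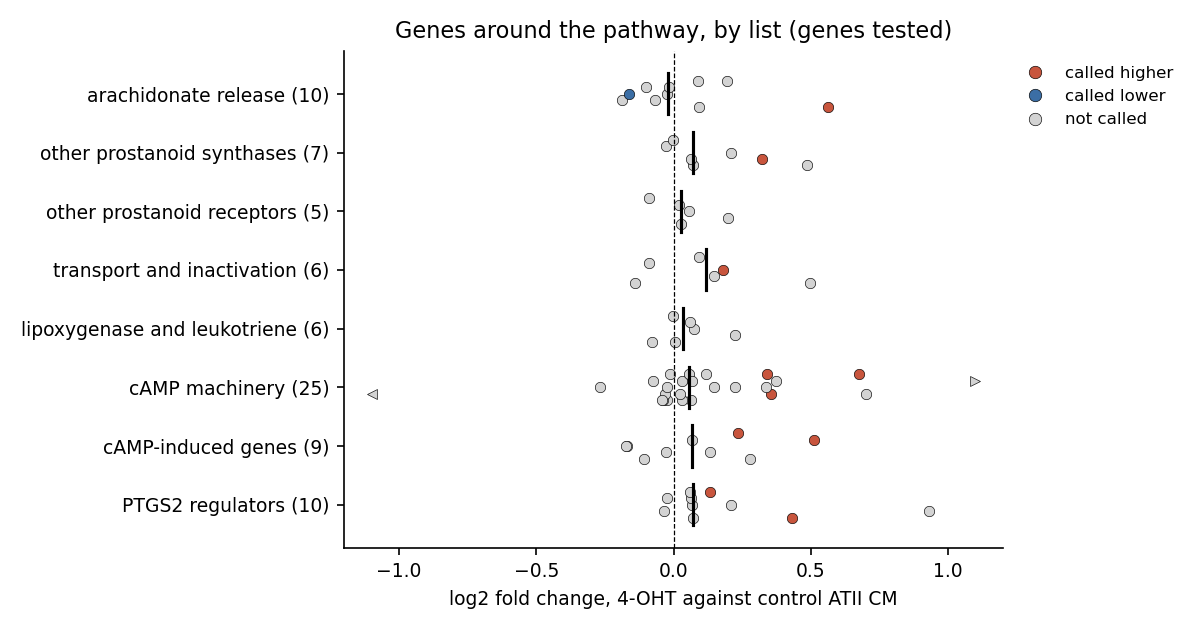
Log2 fold change of the 78 tested genes of the 8 lists around the pathway, 1 point per gene and 1 row per list, with the number tested in brackets. Red points are called higher, blue called lower and grey not called, black bars are list medians, and triangles are *ADCY1* (-2.04) and *ADCY4* (2.17), which lie outside the axis, with 37 and 14 counts over all libraries. Of the called genes 10 lie right of 0 and 1, *ANXA1*, lies left.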

How the data were processed

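RNA-Seq was analysed for MRC5 fibroblasts in control ATII CM (3 libraries) and 4-OHT ATII CM (3 libraries), grouped by sample title. Per the paper's methods and the submitters' processing notes, reads were trimmed with Trim Galore, mapped to GRCh38 with HISAT2 2.1.0 and counted with featureCounts 1.6.5, and the authors deposited raw counts per gene with the length of its exons and no normalization. The annotation release, and whether strand was used in counting, are not given in the sources used here. Counts of 45 identifiers listed on both X and Y were added. Symbols were found for 58207 of the 58676 identifiers in a reference table.

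Genes with at least 10 counts over the 6 libraries were tested with edgeR 4.0.16 (R 4.3.3; TMM, quasi-likelihood test on group alone). Adjustment over all genes followed Benjamini and Hochberg, with calls below 0.05. The SE is the log2 fold change over the root of its F value, intervals are 95%, and counting limits cover counting error only. Replicates varied by 4.36% beyond counting noise (biological coefficient of variation). Chi-square values of 2.04 to 5.56 per degree of freedom between libraries of the same group showed none deposited a second time within its group. Alternatives were DESeq2 1.42.0, limma-voom (limma 3.58.1), RLE and upper-quartile factors, filterByExpr, no filter, a replicate block, removal of each library's trend on exon length (spline with 5 degrees of freedom), and each library left out. The fits were tested on simulated data. Close copies were searched with minimap2 2.31, at 90% cover and 98% identity on alternate contigs and 50% and 95% in other genes' transcripts. Promoters came from a set of RefSeq starts (GRCh38.p14), in which 9 of the 10 genes were found.

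Members and lists were chosen with earlier results of these data known. Named were all members and, from each list, every gene called (6 at most, by p) and the most abundant per kb. Other genes named, such as those without counts, were chosen after their values were seen.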

Additional observations from a re-analysis of the deposited data

How the results depend on the processing

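With DESeq2, limma-voom, RLE and upper-quartile factors, filterByExpr, no filter, or the length trend removed, 2 to 3 of the prostaglandin genes were called, 11 to 16 of the other pathway genes and 954 to 1601 genes in all, with no member called lower. Leaving out 1 library at a time gave 1 to 3 prostaglandin genes, 5 to 12 other pathway genes and 533 to 1530 genes in all, against 3, 11 and 1090 with all 6. The prostaglandin count was 1, *PTGS1* alone, without control replicate 3, 4-OHT replicate 2 or 4-OHT replicate 3. Other pathway genes numbered 7, 5 and 7 without control replicate 1, 4-OHT replicate 2 and 4-OHT replicate 3, and all genes 663, 533 and 615 without control replicate 3, 4-OHT replicate 2 and 4-OHT replicate 3. The fits with a library left out have fewer libraries, and the cause was not otherwise tested. Not called in the reported analysis but called in some alternatives, most of them with all 6 libraries, were *ZFP36* (7 of 15), *ABCC4* (5 of 15), *DUSP1* (3 of 15), *ADCY1* (3 of 13) and *ADCY3* (2 of 15), and the cause was not tested. The difference in the log2 ratio of *PTGS2* to *PTGS1* ran from -0.07 without control replicate 3 to 0.18 without control replicate 2, and the log2 fold change of *PTGIS* from -0.11 without 4-OHT replicate 3 to 0.28 without 4-OHT replicate 1. Scaling moved the median of all genes by less than 0.1. Among the prostaglandin genes tested the widest interval, -0.56 to 0.82, was that of *PTGIS*, with 9 to 22 counts per library, and *HPGD* had none to test.

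With the replicate number as a block (replicate block), 2 prostaglandin genes were called, *PTGES* being lost (adjusted p = 0.0666), with 11 other pathway genes and 985 genes in all. *PLA2G4A* (0.0548) and *CEBPB* (0.0553) were also lost under the block, while *ABCC4* (log2 fold change 0.15, adjusted p = 0.0396) and *DUSP1* (-0.18, 0.0498) were gained. With the block and the length trend removed together these numbers were 3, 14 and 1189. The paired difference of the log2 ratio was 0.08. Same-numbered libraries had correlations of -0.0145, -0.104 and -0.0931 in their deviations from the group means over 9691 genes. No shared effect of the replicate number was thus visible, but this cannot show whether same-numbered libraries were made together.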
